A study of Mus musculus with 24 samples.

Results

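The DNA between genes but close to them was examined here in the dentate gyrus, using the CpGs that lie outside every annotated gene, over 1000 bases from every transcription start and at most 10000 bases from the nearest gene boundary. Of the 762162 CpG rows in the methylation table, 72229 (9.48%) met this rule, and 7106 of these had a value in all 19 mice. A row is 1 cytosine on 1 strand of the GRCm38 (mm10) genome, and 4922 CpGs were present with both strands. The nearest gene was 1 of 13824 genes, with 33700 rows upstream of it and 38529 downstream. Intergenic CpGs over 10000 bases from any gene (91569 rows), called far intergenic below, and CpGs in gene bodies served for comparison.

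RRBS, which reads bisulfite-treated DNA from CpG-rich restriction fragments, was performed on micro-dissected dentate gyrus from female C57BL/6JRj mice. The 3 groups were 5 Young STD mice aged 1.5 months in standard cages, 7 Aged STD mice aged 14 months in standard cages, and 7 Aged ENR mice of 14 months kept in environmental enrichment, a large shared enclosure with tunnels and toys, from an age of 6 weeks according to the methods of the study. All groups share sex, strain, tissue and library method. Young ENR mice were not analysed here, so housing was compared only at 14 months. The labels do not say which mice shared a cage, so p-values measure the spread between these libraries. According to the methods, enriched mice lived as 1 large group in a common enclosure, so the Aged ENR mice may all come from 1 enclosure, and effects of enrichment and of that enclosure cannot be told apart. A tissue sample holds neurons and glia together, so methylation in 1 cell type and cell proportions cannot be separated. The table has no transcripts, and cell type markers could not be checked.

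Methylation of the cytosine in a CpG is copied to the new strand by DNMT1 when cells divide, is set de novo by DNMT3A and DNMT3B, and is removed through oxidation by TET enzymes. Most of the mammalian genome outside CpG islands is methylated, whereas CpG islands at promoters are kept free of it, and the flanks of genes hold the transition between both states together with enhancers and transposon remnants. In neurons, methylation at such distal elements differs between cell types and is altered by activity.

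The near-gene stretches differed widely in base composition and in the number of CpGs read, so the sequences of 8 regions are shown, chosen because the results below turn on them. A region is a run of at least 3 rows no more than 100 bases apart, and it is named by its nearest gene. Each sequence is the plus strand of GRCm38, and capitals mark the CpGs with a measured cytosine on either strand. Egr3 (chr14:70075559-70075758) and Neurog2 (chr3:127641043-127641242) are each shown by the densest 200 bases of a longer region. Both regions were at low levels in the mean over mice, and Gm5981 (chr3:122638301-122638500) was chosen for an intermediate average over its rows. Group ranges did not overlap between Aged STD and Young STD mice at Kctd6 (chr14:8206450-8206604), 4930413E15Rik (chr5:118944171-118944235) and Gm28559 (chr7:33159362-33159447), or between Aged ENR and Young STD mice at Ywhaz (chr15:36762101-36762175) and Gm45651 (chr8:60764096-60764295). For Gm45651 the stretch shown is the densest 200 bases of a longer region (chr8:60764111-60764338), over which its values were averaged.
Egr3: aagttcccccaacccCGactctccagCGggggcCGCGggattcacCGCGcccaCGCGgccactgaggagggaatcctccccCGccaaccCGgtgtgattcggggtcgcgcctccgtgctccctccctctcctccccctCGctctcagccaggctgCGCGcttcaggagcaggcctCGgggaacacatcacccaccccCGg
Neurog2: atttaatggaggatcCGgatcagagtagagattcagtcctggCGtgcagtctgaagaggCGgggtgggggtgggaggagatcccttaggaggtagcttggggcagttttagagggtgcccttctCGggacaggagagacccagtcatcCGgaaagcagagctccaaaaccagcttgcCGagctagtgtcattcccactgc
Gm5981: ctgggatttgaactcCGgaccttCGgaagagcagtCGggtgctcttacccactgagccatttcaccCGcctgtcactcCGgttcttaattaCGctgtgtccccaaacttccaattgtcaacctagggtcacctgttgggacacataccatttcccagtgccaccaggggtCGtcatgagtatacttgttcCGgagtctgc
Kctd6: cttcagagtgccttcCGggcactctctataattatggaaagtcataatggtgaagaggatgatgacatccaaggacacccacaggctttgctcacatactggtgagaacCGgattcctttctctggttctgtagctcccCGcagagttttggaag
4930413E15Rik: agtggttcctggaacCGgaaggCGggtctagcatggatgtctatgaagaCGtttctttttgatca
Gm28559: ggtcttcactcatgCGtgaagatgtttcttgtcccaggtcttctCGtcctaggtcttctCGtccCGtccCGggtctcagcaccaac
Ywhaz: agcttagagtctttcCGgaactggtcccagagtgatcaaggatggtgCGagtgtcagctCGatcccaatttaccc
Gm45651: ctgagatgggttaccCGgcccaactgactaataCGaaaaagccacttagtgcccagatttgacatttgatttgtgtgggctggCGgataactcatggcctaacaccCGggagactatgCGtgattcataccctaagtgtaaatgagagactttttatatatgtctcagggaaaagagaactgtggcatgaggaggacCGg

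In Egr3, 15 of 19 CpGs in the 200 bases shown were measured and the GC content was 71.5%. The Kctd6 stretch had 3 CpGs in 155 bases, all of them measured, at a GC content of 48.4%. This contrast held for the whole set, in which a window of 250 bases on either side of a CpG contained a median of 11 CpGs, with quartiles of 7 and 17. The median GC content of these windows was 49.7%, and 13.6% of members were island-like (GC over 50% and an observed to expected CpG ratio over 0.6) against 6.41% of far intergenic CpGs. Repeats marked in the genome sequence held 21.2% of members and 33.4% of far intergenic CpGs. The nearest gene was protein-coding for 51.6% of members and a pseudogene for 18.6%, compared with 31.1% and 29.6% far from genes.

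Near-gene CpGs were either free of methylation or almost fully methylated more often than at levels between. In Young STD mice, 28.5% of members had a group mean under 10%, 44.4% a mean of 10% to 90% and 27.1% a mean over 90%. Far from genes these shares were 12.8%, 47.0% and 40.2%. Members measured in all mice were a less methylated part of the set, with 45.6% under 10% and 14.7% at 90% or above in the mean over mice. Their Young STD mean was 34.1%, against 52.1% over all members each mouse had measured. Those with a mean of 35% to 65% made up 8.81% of this part. They were also the most variable ones, with a median SD over mice of 25.5 points against 5.71 points for members under 10%. Cytosines facing each other on both strands of 1 CpG had means that correlated with r = 0.977 across 121 CpGs, which share libraries. The correlation was 0.952 for 6142 pairs of rows 2 to 50 bases apart, 0.737 for 1247 pairs over 200 and up to 1000 bases apart and 0.521 for 1505 pairs over 1000 and up to 10000 bases apart. These correlations are of means over mice, so nearby rows had similar average levels, while 8.37% of the most distant pairs differed by over 50 points. Within single mice agreement was looser. The strands of CpGs at an intermediate level in the other mice differed with an SD of 30.3 to 48.5 points.

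Averaged over the 7106 members measured in all mice, methylation was 34.1% ± 1.52 (SD, n = 5) in the Young STD group, 31.4% ± 2.55 (n = 7) in the Aged STD group and 32.6% ± 1.54 (n = 7) in the Aged ENR group. The Young STD mice were at 32.8, 33.2, 32.8, 35.7 and 35.7%, the Aged STD mice ranged from 28.3 to 35.8% with a median of 32%, and the Aged ENR mice from 30.6 to 35.7% with a median of 32.5%. The Aged STD mean was 2.64 points below that of Young STD and 6 of 7 Aged STD mice lay below every Young STD mouse, but the seventh had the highest value of all 19. The Aged ENR mean was 1.19 points above Aged STD, with 0 of 7 mice beyond the Aged STD range, so the housing difference was smaller than the spread between mice. It was 0.677, 1.92 and 0.772 points without Aged STD mouse 3, 5 or 6 and 0.676 points without Aged ENR mouse 6. Aged ENR and Young STD differed by -1.45 points, and here too 6 of 7 Aged ENR mice lay below every Young STD mouse. All 3 comparisons share groups and are not independent of each other, and no p is given for these means.

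**Figure D1:**
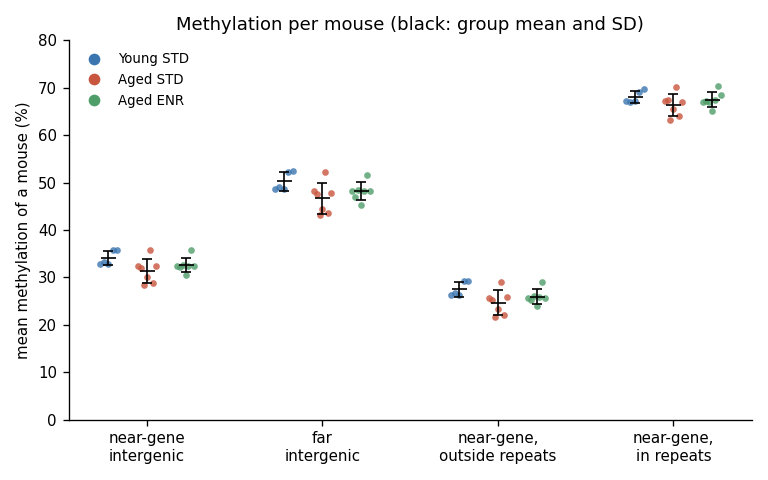
Mean methylation per mouse in percent (points), with group mean and SD (black), for near-gene and far intergenic CpGs measured in all mice and for near-gene CpGs outside and inside repeats. Near-gene values lie between 28.3 and 35.8% and far intergenic values between 43.1 and 52.5%, while the groups overlap within each class.

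Libraries whose numbers begin with 27 and with 37 differed in level. In the first series Young STD mice were at 32.8 to 33.2% (3 mice), Aged STD at 28.3 to 32.3% (4 mice) and Aged ENR at 30.6 to 32.6% (4 mice). In the second both Young STD mice were at 35.7%, while Aged STD ranged from 28.9 to 35.8% and Aged ENR from 32.5 to 35.7% (3 mice each). The age difference was -2.26 points within the first series and -3.34 points within the second, and the housing difference was 1.17 and 1.22 points.

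The 3 lowest means came from the mice with the fewest members measured. Mice had values at 42820 to 69545 members (59.3% to 96.3%), and the read number behind each value is unknown. Aged STD mice 3, 4 and 6 had the fewest, 65.5%, 59.3% and 62.8%, and means of 28.3, 30.1 and 28.9%. Aged ENR mouse 4 came next in both, with 69.6% of members and a mean of 30.6%. The mice with the most members, 96.3, 94.2 and 92.5%, were at 33.2, 32.3 and 32.8%, and those with the highest means, 35.7 to 35.8%, had 75.8 to 79.4%. Without these 3 mice, chosen after seeing the data, the age difference was -0.912 points and the housing difference -0.534 points, opposite in sign to that with all mice. The composition index of a mouse is the mean level, in Young STD mice other than itself, of all the CpGs of the table it had measured, and with it as a covariate the age difference was -0.830 points, the housing difference 0.114 points and that of Aged ENR from Young STD -0.672 points. Averaging all members that a mouse had measured instead gave 52.1% ± 1.85, 43.0% ± 10.4 and 48.3% ± 5.11 in the same order of groups, an age difference of -9.12 points. The part of coverage in the group differences was not tested further.

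**Figure D2:**
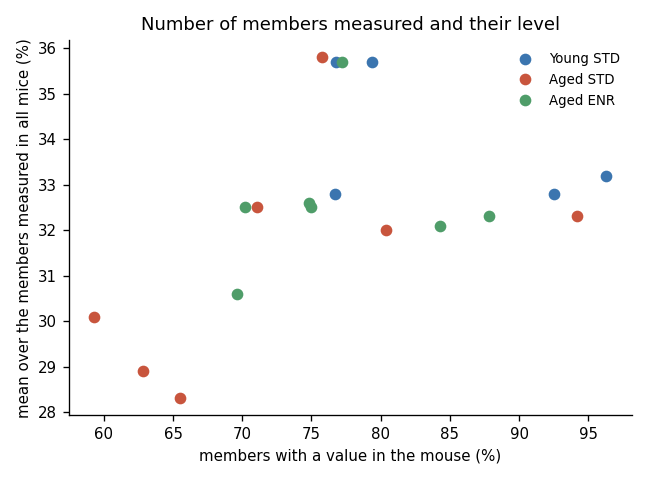
Percent of near-gene members with a value in each mouse (horizontal) against the mean methylation of the members measured in all mice (vertical, percent), coloured by group. The 3 Aged STD mice with 59.3 to 65.5% of members measured are also the 3 lowest, at 28.3 to 30.1%.

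Methylation was higher farther from genes on both sides, here and in the classes that follow for members measured in all mice. Upstream, the Young STD mean was 20.7% ± 0.955 at 1000 to 2000 bases, 34.8% ± 1.46 at 2000 to 4000, 40.8% ± 1.26 at 4000 to 6000, 39.1% ± 1.91 at 6000 to 8000 and 46.1% ± 1.83 at 8000 to 10000 bases (SD, n = 5). Downstream, it was 25.9% ± 2.00 within the first 1000 bases after the gene end and 40.9% ± 2.16 at 8000 to 10000 bases. The gradient was not steady, since the class at 6000 to 8000 bases lay below the one before it on both sides. At 1000 to 2000 bases the downstream class was higher, at 29.2% ± 1.62, whereas at 2000 to 4000, 4000 to 6000 and 6000 to 8000 bases it was at 32.8, 38.8 and 36.7%, below the upstream class in each case, as at 8000 to 10000 bases. Aged STD means were below Young STD means in 11 of 11 distance classes and Aged ENR means lay between them in 11 of 11, classes that share the same mice. Across the edges of the rule, Young STD means were 42.1% ± 1.70 at 9000 to 10000 bases from a gene and 42.4% ± 1.82 at 10000 to 11000 bases, and 17.4% ± 1.43 at over 1000 and up to 1200 bases from a transcription start and 11.8% ± 0.551 at 800 to 1000 bases. The age difference ran from -1.53 points nearest to genes upstream to -3.87 points at 6000 to 8000 bases downstream. Relative to the Young STD mean of each class these were -7.40% and -10.6%.

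**Figure D3:**
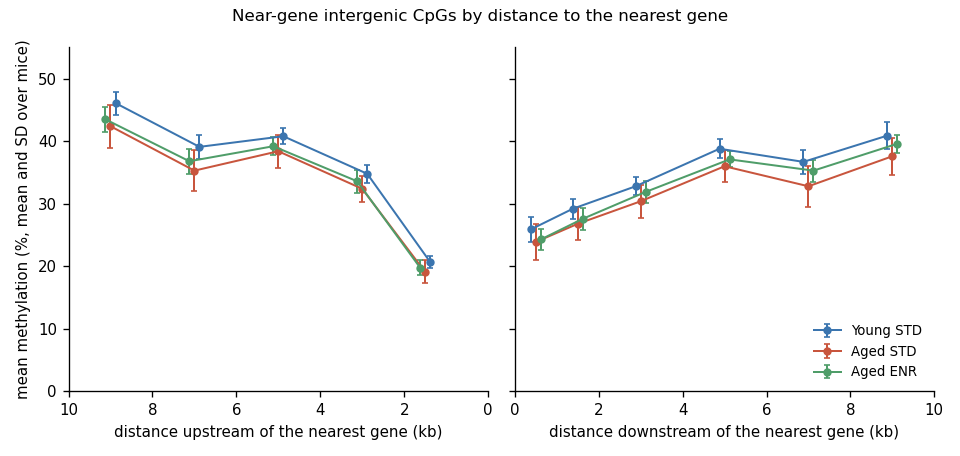
Mean methylation in percent (points, with SD over mice) of near-gene CpGs measured in all mice, by distance upstream or downstream of the nearest gene in kb, for each group. Young STD means go from 20.7 to 46.1% upstream and from 25.9 to 40.9% downstream, with the group SDs overlapping.

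The widest differences in level followed CpG density. In Young STD mice, members with 1 to 5 CpGs in the window were at 61.1% ± 0.968, those with 6 to 10 at 48.5% ± 1.93, those with 11 to 15 at 33.7% ± 2.24 and those with 16 to 20 at 24.4% ± 1.78. Members with 21 to 30 CpGs were at 12.2% ± 0.663 and members with over 30 at 3.69% ± 0.578. Far intergenic CpGs of the same densities were at 53.0% ± 1.27 and 18.2% ± 0.660 in the 2 densest classes, but at 69.6% ± 1.64 in the sparsest. At 21 to 30 CpGs, Young STD mice ranged from 11.6 to 13.3% close to genes and from 51.7 to 54.9% far from them, without overlap. The age difference of members was -4.67 and -4.56 points in the 2 sparsest classes, -0.147 points at 21 to 30 CpGs and 0.393 points above 30. The densest classes started near 0, so they had little room to fall. Relative to the Young STD mean, the differences were -7.64, -9.41, -7.29 and -7.33% in the classes up to 20 CpGs. They were -1.20% at 21 to 30 CpGs and 10.6% above 30. In the sparsest class 6 of 7 Aged STD mice were below every Young STD mouse, and at 21 to 30 CpGs 1 of 7 was.

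**Figure D4:**
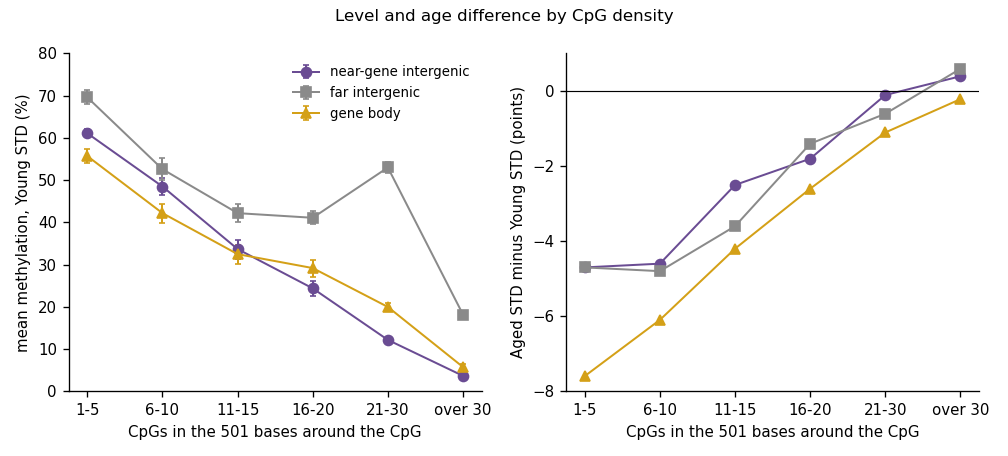
Left, mean methylation of Young STD mice in percent (SD over 5 mice) by the number of CpGs in the 250 bases on either side of a CpG, for near-gene intergenic, far intergenic and gene-body CpGs; right, Aged STD minus Young STD in points. Near-gene levels fall from 61.1% to 3.69% with density, and the age difference goes from -4.67 to 0.393 points.

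Repeats, the inherited copies of transposons and other multiplied sequence, were the most methylated members. Young STD mice had 68.0% ± 1.24 in repeats and 27.5% ± 1.58 outside them, and repeats were higher by 39.7 to 42.7 points in 19 of 19 mice. The Aged STD mean was 1.65 points lower than Young STD in repeats, with 3 of 7 mice below every Young STD mouse, and 2.83 points lower outside them, with 6 of 7. By nearest gene, Young STD levels were 27.4% ± 1.39 beside protein-coding genes, 31% ± 1.96 beside long noncoding RNA genes, 37% ± 1.30 beside small RNA genes and 56.8% ± 1.43 beside pseudogenes. Pseudogenes are inactive gene copies, often inserted by retrotransposition. The 198 X-chromosome members measured in all mice were at 64.6% ± 0.743 in Young STD against 33.2% ± 1.55 on the autosomes. Near-gene CpGs as a whole were below far intergenic CpGs by 14.4 to 16.8 points in 19 of 19 mice.

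Single CpGs were then compared with limma, which moderates the variance of each CpG with that of all others, and p-values were adjusted over all CpGs tested. Between Aged STD and Young STD, 0 of 62561 members tested passed an adjusted p of 0.05 with a difference over 25 points (0% of the 527597 CpGs tested), and the lowest adjusted p of a member was 0.450. At an unadjusted p under 0.05, limma gave 3244 members (5.19%, against 4.42% of all CpGs tested), of which 2273 were lower in Aged STD. The share that was lower was 70.1% (75.3% over all CpGs), and 51.8% (45.2%) with the composition index as a covariate and 53.6% (54.9%) without Aged STD mice 3, 4 and 6. A difference over 25 points was seen at 7253 members (11.6%, against 9.35% of all CpGs). The median difference was -1.10 points over members and -0.563 points over all CpGs. It was -0.389 and -0.482 points with the composition index, and -0.174 and -0.404 points without the 3 mice, so that members then no longer had the larger of these shifts. All CpGs include those within 1000 bases of a transcription start, at 6.05% in Young STD mice with an age difference of -0.648 points. Among CpGs measured in all mice, the mean age difference was -3.53 points far from genes and -4.33 points in gene bodies, both larger than the -2.64 points of members. Relative to the Young STD mean these were -7.02, -12.6 and -7.75%.

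For housing, limma called 0 of 61966 members (0% of 530258 CpGs), with a lowest adjusted p of 0.769. Members with an unadjusted p under 0.05 numbered 1786 (2.88%, against 2.25% of all CpGs), of which 1176 were higher in Aged ENR than in Aged STD. Here 34.2% were lower (35.5% over all CpGs), a share that was 49.5% (56.9%) with the composition index and 50.7% (59.6%) without the 3 Aged STD mice. Differences over 25 points occurred at 5689 members (9.18%, against 7.16% of all CpGs). Among CpGs measured in all mice, the mean housing difference was 1.43 points far from genes and 1.57 points in gene bodies, against 1.19 points at members. Between Aged ENR and Young STD, limma called 0 of 62578 members (0% of 522275 CpGs), with 2924 members (4.67%, against 3.95%) at an unadjusted p under 0.05 and 5720 (9.14%, against 7.60%) over 25 points.

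Among CpGs measured in every mouse of both groups, the ranges of Aged STD and Young STD mice did not overlap at 39 members that were lower and 11 that were higher in Aged STD, of 9339 (0.535%, against 0.432% of all CpGs). The ranges of Aged ENR and Young STD mice were apart at 44 lower and 12 higher members of 12270 (0.456%, against 0.323%). For housing, 2 of 8659 members were apart (0.0231%, against 0.0162%), and both were higher in Aged ENR. Dhx37, which encodes an RNA helicase, had the first, 9987 bases downstream at position 125403871 of chromosome 5, where Aged STD mice ranged from 0 to 36.0% (median 30.8%) and Aged ENR mice from 38.2 to 76.7% (median 49.2%). The second lay 4899 bases downstream of Gm15288, at position 111556473 of chromosome 13, with Aged STD mice at 64.5 to 75.6% (median 72.2%) and Aged ENR mice at 80.5 to 100% (median 90.2%).

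Regions average several neighbouring rows and vary less than single cytosines. The 8641 near-gene intergenic regions held 47073 members, with a median of 4 rows and 74 bases, and 1285 of them were measured in all mice. For age, limma called 0 of 8594 member regions (0% of 74777 regions tested), and the lowest adjusted p of a member region was 0.259. An unadjusted p under 0.05 was reached by 553 member regions (6.43%, against 5.96% of all). Of these, 372 were lower in Aged STD (67.3%, against 71.5% over all regions). With the composition index 220 were lower and 255 higher (46.3% lower, against 46.3% over all regions). The counts were 175 lower and 226 higher without Aged STD mice 3, 4 and 6 (43.6% lower, against 47.6%), so the change was seen over the whole table. A difference over 25 points was seen at 249 member regions (2.90%, against 2.71%), of which 90% were lower in Aged STD (89.5% over all regions). This share was 66.8% (67.6%) with the composition index and 71.1% (71.6%) without the 3 mice. For housing, 0 of 8574 were called (0%), 375 (4.37%, against 3.79%) had an unadjusted p under 0.05 by limma, and 166 (1.94%, against 1.60%) differed by over 25 points. Of the 375 regions 37.1% were lower in Aged ENR (38.4% over all regions). With the composition index 215 were lower and 203 higher (51.4% lower, against 52.2% over all regions). The counts were 180 lower and 135 higher without the 3 Aged STD mice (57.1% lower, against 60.0%). For Aged ENR against Young STD, 0 of 8576 were called (0%), 557 (6.49%, against 5.53%) had an unadjusted p under 0.05 by limma and 183 (2.13%, against 1.88%) differed by over 25 points.

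Group ranges were apart for age at 5 lower and 2 higher member regions of 1674 measured in all mice of both groups (0.418%, against 0.594% of all such regions). They were apart at 11 lower and 3 higher of 2236 for Aged ENR against Young STD (0.626%, against 0.468%) and at 0 of 1547 for housing (0.0444% of all regions). The regions named next had the largest differences among these.

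Kctd6 encodes an adaptor of the cullin 3 ubiquitin ligase, and a region of 4 rows lay 7581 bases upstream of it (chr14:8206465-8206589). Young STD mice were at 63.6, 45.8, 37.9, 84.8 and 41.8%, while Aged STD mice ranged from 0 to 35.4% with a median of 28.7%. All Aged STD mice were below the lowest Young STD mouse, with a difference of -32.3 points (SE 10.5, limma adjusted p = 0.670). Aged ENR mice ranged from 0 to 55.9% with a median of 31.7% and overlapped both other groups. The region 8146 bases upstream of the long noncoding RNA gene 4930413E15Rik (chr5:118944186-118944220) was at 25.6, 34.4, 18.8, 31 and 31.3% in Young STD mice and at 5.95 to 15% in Aged STD mice (median 8.89%). The difference was -17.8 points (SE 3.96, limma adjusted p = 0.463), and Aged ENR mice spread from 0 to 47.7% (median 16.8%), across both ranges.

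The third of the lower regions, 5469 bases downstream of the pseudogene Gm10548 on chromosome 18, differed by -20.7 points (SE 5.10, limma adjusted p = 0.505), with 15.2 to 45.5% in Young STD and 0 to 13% in Aged STD mice. Aged ENR mice, at 0 to 17.5%, were close to Aged STD there. In the opposite direction, a region in repeat sequence downstream of the pseudogene Gm28559 (chr7:33159377-33159432) was at 83.0, 84.0, 89.3, 86.8 and 82.3% in Young STD and at 90.4 to 100% in Aged STD mice (median 95.2%). This difference was 9.36 points (SE 2.39, limma adjusted p = 0.509), and Aged ENR mice ranged from 82.3 to 96.0%. The other higher region, upstream of Sult1c2-ps1 (chr17:53882878-53882893), differed by 5.64 points (3.52 points without Young STD mouse 4), between 85.7 to 98.4% and 98.9 to 100%, and the 50 bases at its centre occur at 7 places in the genome, so that reads may not be assigned to 1 of them.

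Ywhaz encodes the zeta isoform of the 14-3-3 proteins, adaptors that bind phosphorylated partners, and showed the largest separation of Aged ENR from Young STD mice, 8622 bases downstream of the gene (chr15:36762116-36762160, 3 rows). Young STD mice were at 76.0, 72.5, 36.6, 100 and 100%, and Aged ENR mice at 0 to 24.2% with a median of 0%. Aged STD mice, measured in 6 of 7, ranged from 0 to 64.0% with a median of 1.49%. Aged ENR differed from Young STD by -72.4 points (SE 11.2, limma adjusted p = 0.202), and the region passed the threshold among regions measured in all mice compared (adjusted p = 0.0356) and without Young STD mouse 3 (-82.6 points, adjusted p = 0.0336). Over 19 alternatives its adjusted p ran from 0.0336 to 0.841.

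Downstream of the pseudogene Gm45651 (chr8:60764111-60764338, 8 rows), Young STD mice were tightly grouped at 95.1, 90.2, 93.7, 83.7 and 90.4%. Aged ENR mice were at 41.7 to 72.2% (median 52.2%) and Aged STD mice at 29.1 to 87.2% (median 51.8%). The difference between Aged ENR and Young STD was -37.3 points (SE 5.80, limma adjusted p = 0.202, and 0.0356 among regions measured in all mice compared), with a range of 0.0356 to 0.841 over 19 alternatives. Both aged groups lay below most Young STD mice here, and Aged STD differed from Young STD by -34.2 points (limma adjusted p = 0.568).

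Wsb1 encodes a substrate receptor of a ubiquitin ligase, and the region 9934 bases downstream of it (chr11:79229417-79229489) was lowest in the enriched mice. Young STD mice were at 45.6, 28.3, 34.7, 25 and 70.2%, Aged STD mice, measured in 6 of 7, at 12.9 to 50.4% (median 37.9%) and Aged ENR mice at 0 to 20.1% (median 4.76%). Aged ENR was 33.1 points below Young STD (SE 7.84, limma adjusted p = 0.553) and 27.3 points below Aged STD (SE 6.92, limma adjusted p = 0.933), with ranges that overlapped those of Aged STD. Higher regions, 3 in number, completed the comparison with Young STD, at 7.66 points near the long noncoding RNA gene Gm26822 (chr16:10823777-10823911), 5.82 points near Foxl2 (chr9:98963652-98963718) and 3.76 points near Gm15287 (chr13:111735370-111735438). At Gm26822, Young STD mice were at 90.5, 94.1, 88.0, 84.5 and 88.6% and Aged ENR mice at 94.3 to 100%. Foxl2 encodes a transcription factor of the ovary, and its region was at 0 in 4 of 5 Young STD mice and at 2.08 to 9.44% in Aged ENR mice. The Gm15287 region lies in repeats with 69 copies of its central 50 bases.

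Pdgfb, the gene of a growth factor that attracts pericytes to vessels, was not measured in all mice, and was singled out after its values were seen, because it was the 1 member region called for age with all groups in 1 limma fit (adjusted p = 0.0476), in which 2 of 74777 regions were called. The region lay 3329 bases downstream (chr15:79992485-79992592, 3 rows). Young STD mice 1, 2, 3 and 5 were at 30.8, 51.3, 50.3 and 36.4%, 6 Aged STD mice at 0 to 5.22% and 5 Aged ENR mice at 10.7 to 33.4%. Aged STD differed from Young STD by -40.4 points (SE 5.16, limma adjusted p = 0.259), with a range of 0.0476 to 0.902 over 19 alternatives.

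**Figure D5:**
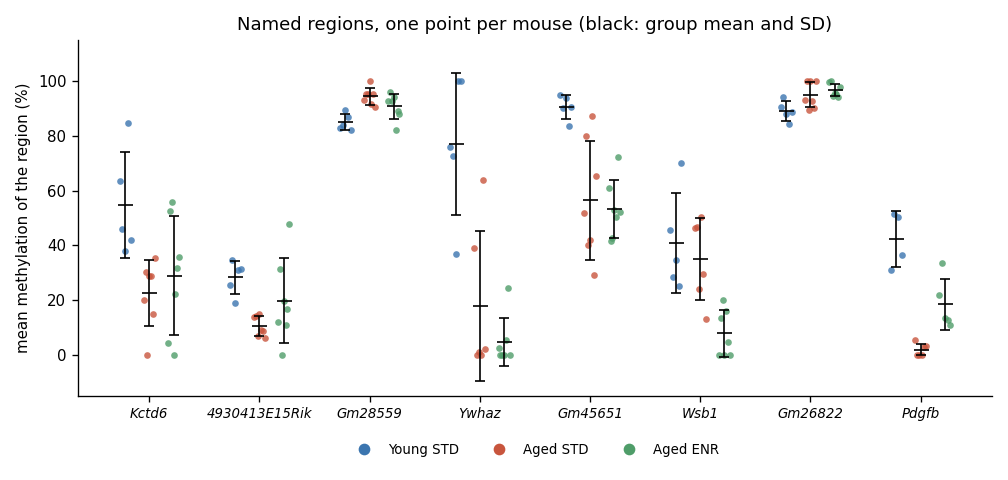
Mean methylation in percent of 8 near-gene regions named by their nearest gene, 1 point per mouse with the group mean and SD (black). Aged STD mice lie below every Young STD mouse at Kctd6, 4930413E15Rik and Pdgfb and above them at Gm28559, and Aged ENR mice lie below every Young STD mouse at Ywhaz, Gm45651 and Wsb1.

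Long regions were also chosen for a mean under 10%, so their low level is not a result. Egr3, an activity-induced zinc finger transcription factor, had the most rows of these, 46, lying 1735 bases upstream of the gene (chr14:70075016-70075949), with 1.67% ± 1.23 in Young STD, 1.04% ± 0.752 in Aged STD and 1.46% ± 1.71 in Aged ENR mice. The 38 rows upstream of Gm21321 (chr10:7391838-7392417) were at 1.32% ± 0.805 over all mice and the 39 rows upstream of the kinesin gene Kif26a (chr12:112144570-112145134) at 2.19% ± 1.65. The 45 rows downstream of CAAA01189291.1 (chr17:48095736-48096235) were at 3.52% ± 1.10 in Young STD, 1.44% ± 0.579 in Aged STD and 3.42% ± 0.939 in Aged ENR mice. Differences there were -2.08 points for age (limma adjusted p = 0.667) and 1.98 points for housing (adjusted p = 0.933), and the differences for age and housing at the other 3 regions were under 2 points.

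Genes with the most members were mainly developmental transcription factors, whose flanks are known to lie in broad CpG-rich domains. Msx1, a homeobox gene, had 130 members, 91 of them under 10%, and the mean of a mouse over the members it had measured, a set that differs between mice, ranged from 5.17 to 15.4%. Lbx1, with 127 members, was at 0.948 to 5.31%, and Uncx, with 114, at 3.02 to 6.11%. Foxa1, a pioneer factor of endoderm, had 113 members at 1.93 to 7.44%, and Cbx8, a Polycomb gene, had 113 at 4.47 to 11%. The zinc finger gene Sp8 had 100 members at 4.02 to 12.8%, and Msx2 had 97 at 5.97 to 16.7%. The only long noncoding RNA gene among the 8 was Gm43177, with 124 members at 0.942 to 3.62%.

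Regions of at least 5 rows at 35% to 65% were chosen for the smallest SD over mice. Gm5981, a pseudogene with 9 rows upstream (chr3:122638317-122638492), was at 60.1% ± 5.43 in Young STD, 63.1% ± 6.36 in Aged STD and 63.7% ± 8.38 in Aged ENR mice, although its single rows had means from 6.28 to 89.3%. Dok5, which encodes a docking protein of receptor tyrosine kinases, had 8 rows downstream (chr2:170888216-170888467) at 35.5% ± 7.72 over all mice, with row means of only 23.8 to 53.2%. The 6 rows downstream of Rem2, a small GTPase that inhibits calcium channels (chr14:54482559-54482708), were at 38.2% ± 11.1. The regions of Gm46204 (chr10:121498039-121498618), 1700054A03Rik (chr19:53090263-53090637) and Hspe1-ps4 (chr4:139143433-139143579) had 36.3% ± 9.52, 39.6% ± 10.3 and 44.6% ± 10.4. A small SD over all mice leaves little room for group differences, so none is read from these regions.

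Genes of 7 lists relevant to the dentate gyrus were examined through their flanks, and no region of a list passed the adjusted threshold in any of the 3 comparisons. The level of a list is the mean over its members measured in all mice, and its regions are compared with the share of all regions at an unadjusted p under 0.05 by limma, 5.96% for age and 3.79% for housing. Transcription factors of neurogenesis had 884 members at 34 genes, and the 96 measured in all mice were at 7.22% ± 1.94 in Young STD, 6.61% ± 1.37 in Aged STD and 7.36% ± 0.772 in Aged ENR mice. Of 94 regions, 4 were lower and 0 higher with age at an unadjusted p under 0.05 (4.26%), and the median difference was -0.130 points against -0.237 points over all regions. For housing, 1 was lower and 3 were higher in Aged ENR (4.26%). Sox21, which maintains neural progenitors, had 15 rows downstream (chr14:118226125-118226252) at 2.57% ± 2.34 over all mice. Neurog2, a proneural factor of glutamatergic neurons, had 12 rows downstream (chr3:127641058-127641267) at 4.06% ± 2.64, 7.57% ± 4.89 and 5.37% ± 1.64 in the young, aged and enriched aged group.

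Homeobox genes had 1294 members at 47 genes, and the 186 measured in all mice were at 8.20% ± 1.63, 6.66% ± 1.59 and 7.86% ± 1.17 in the 3 groups in the same order. Of 131 regions, 5 were lower and 1 higher with age at an unadjusted p under 0.05 (4.58%, against 5.96% of all regions), and 1 was lower and 0 higher with housing (0.763%, against 3.79%). The 35 rows upstream of Tlx1 (chr19:45143370-45143884) and the 22 rows downstream of Hoxc12 (chr15:102939471-102939829) were at 2.03% ± 1.8 and 1.98% ± 1.70 over all mice. Glial genes had 100 members, and the 15 measured in all mice were at 10.2% ± 2.65, 9.54% ± 2.86 and 12.1% ± 3.62. Of 13 glial regions, 0 were lower and 1 higher with age (7.69%, against 5.96%) and 0 passed for housing. C1qa, a complement subunit made by microglia, and Slc1a3, the glutamate transporter of astrocytes, had 9 and 8 rows (chr4:136905244-136905494 and chr15:8629543-8629739) at 2.11% ± 2.02 and 2.12% ± 2.73.

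Synaptic genes had 211 members at 23 genes, and the 20 measured in all mice were at 13.9% ± 4.85, 12.6% ± 5.41 and 12.6% ± 5.06. This list also held the transcription factor Egr3, with the 46 rows of low level described above. Of 16 synaptic regions, 1 was lower with age (6.25%, against 5.96% of all regions) and 0 passed for housing. Nlgn3, an adhesion molecule of the synapse on the X chromosome, had 14 rows downstream (chrX:101332498-101332738) at 27.6% ± 11.6, 21.4% ± 9.06 and 20.3% ± 9.51 in the young, aged and enriched aged group. Growth factors and their receptors had 217 members, and the 22 measured in all mice were at 16.9% ± 2.68, 18.6% ± 4.02 and 19.4% ± 3.28, higher in both aged groups by less than the SD of those groups. Of 25 regions, 2 were lower and 0 higher with age (8.0%, against 5.96%) and 2 were higher with housing (8.0%, against 3.79%). Kdr, the main receptor of VEGF, stood at 93.1% ± 7.01 downstream (chr5:75927108-75927254) and Fgf4 at 3.54% ± 8.81 (chr7:144874608-144874841), the latter with a median of 0% in every group and a mean of 1.66% without its highest mouse, Young STD mouse 4.

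Wnt, Notch and Hedgehog genes had 234 members, and the 19 measured in all mice were at 24.6% ± 4.37, 22.6% ± 4.93 and 23.6% ± 5.29. Of 27 regions, 1 was lower and 1 higher with age (7.41%, against 5.96% of all regions), and likewise for housing (7.41%, against 3.79%). Wnt10b, a secreted ligand, had 8 rows upstream (chr15:98780483-98780629) at 21.2% ± 8.63, and Tcf7l2, the nuclear effector of Wnt signalling, had 6 rows downstream (chr19:55941167-55941266) at 18.0% ± 7.17, 20.9% ± 7.55 and 27.7% ± 6.49 in the 3 groups. Imprinted genes, which are methylated on 1 parental allele at their control regions, had 124 members, and the 12 measured in all mice were at 30.5% ± 1.94, 28.6% ± 6.51 and 29.2% ± 4.86, the highest of the 7 lists. Of 15 regions, 0 were at an unadjusted p under 0.05 for age by limma (against 5.96%) and 1 was lower for housing (6.67%, against 3.79%). The 7 rows upstream of Trappc9 (chr15:73067781-73067963), which acts in vesicle transport, were at 1.56% ± 1.8. H19, an imprinted noncoding RNA gene with a control region upstream, had 3 member rows, at positions 142581187, 142581230 and 142581387 of chromosome 7, and no region. The row at 142581187 was measured in 15 mice, with medians of 21.4% in 4 Young STD, 0% in 5 Aged STD and 0% in 6 Aged ENR mice, and single mice at 100% in the first 2 groups. Too few mice were measured there for more than these values.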

How the data were processed

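RRBS reads of single mice were trimmed by the authors with Trim Galore 0.4.0 and cutadapt 1.8.1, mapped to mm10 with Bismark 0.16.1 and summarised with methylKit 1.5.2, per the submitters' processing notes. The study's methods describe a minimum of 10 reads per cytosine and at least 3 mice a group. The deposited table gives the percent of methylated reads per cytosine and mouse, without read numbers, so no interval for a single value was made. Sample columns matching no described sample numbered 0.

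Positions were compared with GRCm38 and GENCODE M21 (55450 genes, 141767 transcripts). Near-gene rows outside CpG context (4) were left out. CpGs and regions with at least 3 mice a group were fitted in percent with limma 3.58.1, using a trended variance and Benjamini-Hochberg adjustment over the whole table, in place of the chi-squared test on reads. A mouse entered a region with at least 50% of its rows measured. The fitting code was tested on simulated data, which checks the computation and not the power at the spread of these data. Replicate numbers did not pair the mice. Members and lists were chosen with earlier results of these data known. Named regions were the 3 largest differences in each direction without overlap, 2 per gene list, the 6 intermediate regions with the smallest SD, the 5 longest low regions (1 is not reported here) and all H19 rows. Alternatives were other scales, variance priors, covariates, regions and sets of mice. Python 3.11.15 and R 4.3.3 were used.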

Additional observations from a re-analysis of the deposited data

Results flagged for a closer look

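In 17 of 114 groups of 5 to 7 mice, 1 mouse stood apart from the rest of its group by a gap that took most of the group's range. How many such groups chance would give was not worked out for these data. Where all other mice of a group are at 0% or at 100%, any single different value is flagged, however small the gap. For the mean over members measured in all mice, Aged ENR mouse 6 was at 35.7% and the other Aged ENR mice at 30.6 to 32.6%.

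Among regions named for a group difference, the Ywhaz region had Aged ENR mouse 6 at 24.2% with the others at 0 to 5.41%. At Foxl2, Aged STD mouse 5 was at 31.2% against 0 to 7.14%, and Young STD mouse 3 at 0.472% against 0% in the others. The Sult1c2-ps1 region had Aged STD mouse 5 at 98.9% and the Gm15287 region Aged ENR mouse 2 at 99.7%, with the others of the group at 100%.

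Among regions of the gene lists, Fgf4 was flagged in all 3 groups, with Young STD mouse 4 at 37.5% (others 0 to 6.52%), Aged STD mouse 2 at 7.29% (0 to 1.06%) and Aged ENR mouse 7 at 10.7% (0 to 4.23%). Young STD mouse 4 was at 10.3% at Sox21 (0.995 to 3.47%) and Young STD mouse 5 at 5.71% at C1qa (0 to 1.03%). Aged STD mouse 3 was at 80.2% at Kdr (91.7 to 100%) and at 8.08% at Hoxc12 (1.45 to 3.21%), and Aged STD mouse 7 at 4.93% at Trappc9 (0 to 1.06%). At Kif26a, a low region, Aged STD mouse 5 was at 6.92% (1.36 to 3.57%). Of the intermediate regions, Gm46204 had Young STD mouse 3 at 53.0% (35.9 to 39.0%) and Hspe1-ps4 had Aged ENR mouse 6 at 57.1% (35.6 to 40.1%).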

How the results depend on the processing

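With all members measured in each mouse in place of those measured in all mice, the mean differences were -9.12 points for age, 5.32 points for housing and -3.80 points for Aged ENR against Young STD. Under the other alternatives run on all mice these means kept their sign, and leaving out 1 mouse gave -3.36 to -2.12, 0.676 to 1.92 and -1.96 to -1.03 points. Leaving out the 3 Aged STD mice with the fewest members measured turned the housing difference to -0.534 points. With 1 prior variance without a trend, limma called 18 members for age (of 120 CpGs in all), 5 for housing (of 26, at Stra6l, Zfp260, Nr1h2, Gm9951 and Gm26797, named after their values were seen) and 17 for Aged ENR against Young STD (of 92). With all groups in 1 fit it called 3 member CpGs for Aged ENR against Young STD (of 7 in all, at Gm28187, Stbd1 and Mir150, also named afterwards) and 1 member region for age (Pdgfb, of 2 in all), and among regions measured in all mice compared 2 regions for Aged ENR against Young STD (Ywhaz and Gm45651, the only 2 of 17517 regions). Without 1 mouse, members called numbered 0 for CpGs in all 3 comparisons, 0 for regions for age and housing, and 0 to 1 for regions for Aged ENR against Young STD.

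Counts of members at an unadjusted p under 0.05 changed with the CpGs and mice tested. With CpGs measured in all mice compared they were 615, 228 and 715 for age, housing and Aged ENR against Young STD (6.59, 2.63 and 5.83% of members tested, against 5.28, 2.00 and 4.87% of all CpGs tested), and with regions so measured 132, 59 and 157 (7.89, 3.81 and 7.02%, against 7.62, 4.08 and 6.50%). With regions of at least 5 rows they were 225, 144 and 191 (6.45, 4.13 and 5.48%, against 5.29, 3.77 and 4.77%). Without the 3 Aged STD mice, 1901 member CpGs passed for age (3.8%, against 3.08%). Leaving out 1 mouse gave 2501 to 3205, 1533 to 1770 and 2350 to 2879 CpGs and 465 to 631, 335 to 387 and 488 to 561 regions. With the replicate number as a block, 1244, 1007 and 1425 member CpGs passed (2.86, 2.07 and 3.14%, against 2.37, 1.48 and 2.53%), although the numbers did not pair the mice: deviations of same-numbered mice correlated at -0.0830 to 0.0540, and those of other mice at -0.0890 to 0.135. The mean age difference under the block was -2.35 points. The cause of the other changes was not tested. The unknown read number, and the values of exactly 0% or 100% at intermediate CpGs (13.9% to 69.2% of a mouse's values), limit the precision of single CpGs.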
